A study of Mus musculus with 7 samples.

Results

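Exonic and untranslated-region (UTR) peaks were the accessible regions whose deposited annotation began with Exon, 5' UTR or 3' UTR. They made up 6771 of the 90376 peaks (7.49%) found in freshly sorted airway macrophages (AMs), of which 4599 were Exon, 269 were 5' UTR and 1903 were 3' UTR peaks. The remaining peaks were annotated to introns (30096), to promoters (28107), to distal intergenic sequence (24229) or to sequence just downstream of a gene (1173). The annotation placed any peak within 3 kb of its nearest transcription start in the promoter classes first, so the 6771 peaks were those that overlapped exon sequence away from that gene's start.

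ATAC-seq libraries, made by letting a transposase insert adapters into accessible DNA, came from CD45+ Siglec-F+ CD11c+ lung cells of C57BL/6 mice, 3 libraries from wild-type (WT) and 4 from *Scnn1b*-transgenic (*Scnn1b*-Tg) mice. The transgene carries the beta subunit of the epithelial sodium channel under the club cell secretory protein promoter, which is active in airway epithelium, and the mice serve as a model of muco-obstructive lung disease. The comparison asked whether AMs that had lived in such airways carried another chromatin accessibility. Nothing in the labels tells whether 1 library held 1 animal, so a p-value here measured the spread between libraries. In bulk libraries a change in the share of cells with an open site and a change in how open it is per cell cannot be told apart.

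Most regulatory elements of mammalian genomes lie outside exons, yet a coding exon, an untranslated exon or the body of a non-coding RNA can itself be bound by transcription factors and depleted of nucleosomes. Exon ends carry splice sites, and a 3' UTR carries the signals for stability and translation of the mRNA. In alveolar macrophages, open chromatin is known to be laid down largely by PU.1 with C/EBP and AP-1 factors, while CTCF marks insulators.

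Reads inside peaks numbered between 20971521 and 56121809 per library, and the median exonic or UTR peak held 77 to 193 reads in a library. All values below are the deposited normalized counts, that is reads scaled between libraries. Of 33 AM identity genes, 32 had a peak within 1 kb of their start, against 11 of 22 epithelial, 8 of 22 lymphoid and 12 of 22 granulocyte and monocyte genes. Peaks at *Cd3e*, *Sftpc* and *Ly6g* were missing, and so was one at the endogenous *Scnn1b* promoter, while *Epcam*, *Ebf1* and *S100a8* were among the genes of other cells that had one. The AM identity gene without such a peak was *Siglec5*. WT replicate 3 and *Scnn1b*-Tg replicate 4 stood apart from the other libraries on the first principal component (109.6 and 101.0, against -90.4 to 8.10 for the other 5). The labels give batches, but the deposited columns carry no batch, so within-batch values could not be computed.

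Most peaks called Exon were wider than the exon under them. The median Exon peak was 764 bp wide and exon sequence covered a median 27.6% of it, whereas the matched exons had a median width of 203 bp. Of the 4509 Exon peaks matched to an exon of the GENCODE M21 annotation, 44.0% spanned its splice acceptor, 49.1% its splice donor and 63.6% at least 1 of them. Among Exon peaks of protein-coding genes the last share was 83.3% (1903 of 2284). The sequences below show the acceptor side of the exon under 5 of the peaks described later, to let the part of the peak that gave the class be seen. Each runs on the gene's strand over 30 bases, with 15 bases of intron in lower case, ending in the ag of the acceptor, and the first 15 bases of the exon in capitals (GRCm38/mm10 reference).
*Atp6v0a2* exon 4, plus strand, chr5:124637471-124637500: gctgtgtcattgcagGAACAGCTGCAGAAG
*Lrp4* exon 37, plus strand, chr2:91508454-91508483: tttttcctcttgaagACACAGAAAATCCAA
*Myom3* exon 3, plus strand, chr4:135763628-135763657: cgtttctactggcagTGAGGAGGAACAACA
*Bcar3* exon 5, plus strand, chr3:122328204-122328233: atttttttttttcagCCCCAGACAGGAAGT
*Tnip1* exon 5, minus strand, chr11:54936527-54936556: cttccttctacctagGGCGCCTCCTCGGAC
In these 5 peaks exons took up 10.5%, 10.8%, 6.21%, 16.1% and 10.5% of the width, in that order. The larger part of each of them was intron.

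The central 200 bp of the peaks were searched on both strands for short strings of known factors. The AP-1 string TGANTCA was found in 8.15% of exonic and UTR peaks, in 8.93% of all peaks and in 10.4% of intron peaks. The PU.1 string GAGGAAGT was found in 6.94% against 6.60% of all peaks, and the C/EBP string TTGCNNAA in 12.3% against 11.9%. Intron peaks held them in 7.48% and 13.3% of cases. A CTCF string (CCA and AGGNGGC with 2 bases between them) was present in 4.26% of 3' UTR peaks, in 3.11% of Exon peaks, in 1.49% of 5' UTR peaks and in 2.42% of all peaks. An interferon response string (2 copies of GAAA, 2 bases apart) stood in 2.85% against 2.86% of all peaks, the NF-kB string GGGANTTCC in 0.990% against 1.14%, and TCACGTG, the E-box of MiT/TFE factors, in 1.77% against 1.75%. The matches below lay in peaks described later and are shown with the string in capitals, on the strand on which it was read.
*Lrp4* peak, AP-1 string, plus strand, chr2:91508260-91508289: ttcactagaagTGAGTCAccagctccggcc
*Uhrf1bp1l* peak, AP-1 string, plus strand, chr10:89776188-89776217: ctgtgagtggcTGATTCAttctaagttcca
*Gm5112* peak, PU.1 string, minus strand, chr6:122811005-122811034: ggccatttgggGAGGAAGTaaagattattt
The *Lrp4* match lay 31 bp before the centre of its peak, in the intron ahead of the printed exon 37. A match is a description of the letters only.

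The 3 classes differed in what they held. Exon peaks lay in 2284 cases in a protein-coding gene, in 860 in a lincRNA gene, in 372 in loci still to be experimentally tested (the TEC biotype), in 333 in an antisense RNA gene and in 230 in a processed pseudogene. By position, 625 Exon peaks lay in a first exon, 2185 in an internal exon, 902 in a last exon and 887 in the only exon of a transcript. The 3' UTR peaks were mostly exon sequence (median 88.8%), and the 5' UTR peaks were not (median 22.4%). Of the 3' UTR peaks, 341 (17.9%) were 3' UTR only in transcripts annotated as nonsense-mediated decay targets. A GENCODE M21 start of any gene fell inside 22.1% of Exon, 30.1% of 5' UTR and 2.36% of 3' UTR peaks, although all of them lay outside the promoter classes. The gene the table assigned by nearest start was also the gene whose exon held the peak in 49.1% of cases, so the host gene is named below and an assigned gene is given where it differs.

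Exonic and UTR peaks were of middling accessibility. Their median was 155 normalized counts per kb of peak, against 139 for intron peaks, 133 for distal intergenic peaks, 396 for promoter peaks and 179 for all peaks. The 5' UTR peaks had 209, the Exon peaks 158 and the 3' UTR peaks 143. The within-library difference from all other peaks was -0.22 ± 0.03 (SD, n = 7) on the log2 per-kb scale for the 3 classes together, -0.19 ± 0.03 for Exon, 0.17 ± 0.09 for 5' UTR and -0.31 ± 0.05 for 3' UTR. The sign was the same in 7 of 7 libraries each time (exact two-sided sign-flip test, p = 0.0156, the smallest that 7 libraries allow; adjusted over the 4 tests, p = 0.0156). Every library measured the same peaks, so this p describes how repeatable the difference was between libraries. All other peaks include the promoter peaks. Against intron peaks alone, a comparison added after the data were seen, the differences were 0.14 for the 3 classes together, 0.17 for Exon, 0.53 for 5' UTR and 0.05 for 3' UTR. In that comparison the adjusted exact p was 0.0208 for the first 3 and 0.172 for 3' UTR. First-exon peaks had a median of 248 per kb and internal-exon peaks 139, and lincRNA exons had 225 against 131 for exons of protein-coding genes.

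**Figure D1:**
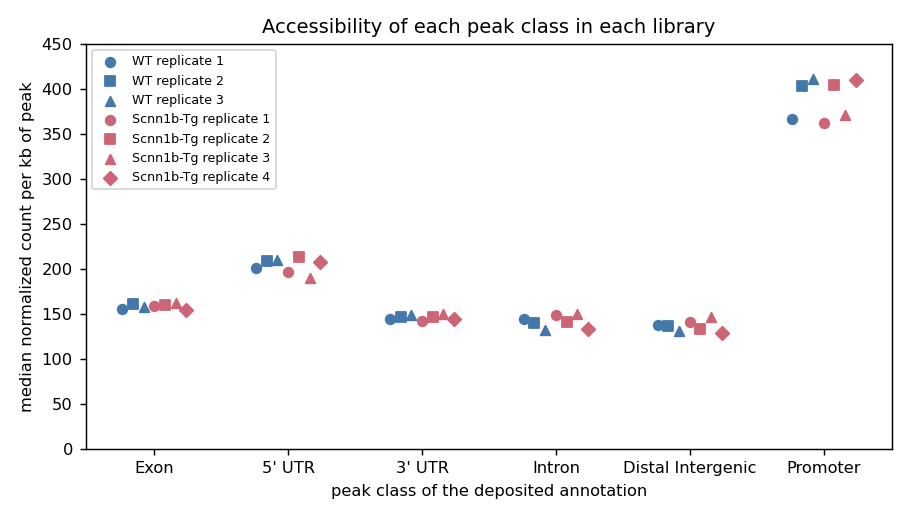
Median normalized count per kb of peak (y axis, from 0) in each peak class (x axis) for each of the 7 libraries; circles, squares, triangles and diamonds are replicates 1 to 4, blue is WT and red *Scnn1b*-Tg. In every library 3' UTR peaks lay below Exon peaks and Exon peaks below 5' UTR peaks, and the medians of the 3 classes stayed well under the promoter medians.

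The most accessible Exon peak per kb lay at exon 7 of *Ezr*, the gene of the membrane to actin linker ezrin (chr17:6745909-6747468). It measured 5900.1, 5128 and 6754 normalized counts in the WT libraries, against 6404, 5158, 6650.3 and 6557 in the *Scnn1b*-Tg libraries. The genotypes overlapped, and exon sequence made up 6.22% of that peak. It was followed by peaks in the single exons of *Gm42660* (4869 ± 1066 against 5102 ± 1334) and *Gm5112* (4103 ± 203 against 4017 ± 137), both loci of the TEC biotype. The *Gm5112* peak holds the PU.1 string printed above.

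Among 5' UTR peaks, *Lmna* (lamin A/C of the nuclear envelope), *Ppp2r3d* (a regulatory subunit of protein phosphatase PP2A) and *Prdm10* (a zinc finger protein) ranked highest per kb. In WT AMs their normalized counts averaged 2500.4 ± 469, 7665 ± 1539 and 3748 ± 89.0, and those of *Scnn1b*-Tg AMs 2518 ± 204, 7332 ± 971 and 3727 ± 111. Each of these 3 peaks contained a transcription start of GENCODE M21.

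Among 3' UTR peaks the order was *Lars2*, *Zc3h12a* and *Trib1*. *Lars2* encodes the mitochondrial leucyl-tRNA synthetase, *Zc3h12a* the ribonuclease Regnase-1, which degrades inflammatory mRNAs, and *Trib1* a pseudokinase that directs degradation of C/EBP alpha. The *Lars2* peak measured 2955, 3078 and 2132 in WT, against 3539, 3026, 3388 and 1876 in *Scnn1b*-Tg libraries, lowest in the 2 libraries that stood apart. The *Zc3h12a* peak measured 2594 ± 526 and 2546 ± 307, and was highest in those same libraries (3194 and 2998). The *Trib1* peak, all of it exon sequence, measured 2034 ± 369 and 2081 ± 439. None of the 9 most accessible peaks separated the genotypes (limma adjusted p of 1.00 for each).

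Exon peaks held many of the matches to mitochondrial DNA. Nuclear genomes carry old copies of mitochondrial DNA, and reads from the abundant mitochondrial genome can be placed on them. When all peaks were compared with the mouse mitochondrial genome, 32 held a match of at least 100 bp and 80% identity, and 16 of these (50%) were Exon peaks, a class with 5.09% of all peaks. All 16 lay in annotated pseudogenes, 6 of them on chromosome 1, with matches of 116 to 2483 bp at 86.3% to 100% identity. None was a 5' UTR or 3' UTR peak.

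The strongest lay in *Gm11407* (chr4:80003202-80005179; 1978 bp match, 93.3% identity), with 2312, 1374 and 1495 normalized counts in WT, against 2969, 975, 2532 and 1025 in *Scnn1b*-Tg libraries. The next, in *Gm13341* (chr2:22587216-22589758; 97.4% identity), gave 1803, 1085 and 1186 and 2310.4, 797, 1844 and 806. Summed over the 16 peaks, the libraries held 7405, 4473 and 4923 in WT, against 9926, 3288, 7949 and 3444 in *Scnn1b*-Tg AMs. *Scnn1b*-Tg replicate 1 was the highest library in 15 of the 16 peaks. The genotype means, 5600.3 ± 1579 and 6152 ± 3317, lay within the spread between libraries, and no peak of the 16 had an unadjusted limma p under 0.05. The part of mitochondrial reads in these values was not tested.

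**Figure D2:**
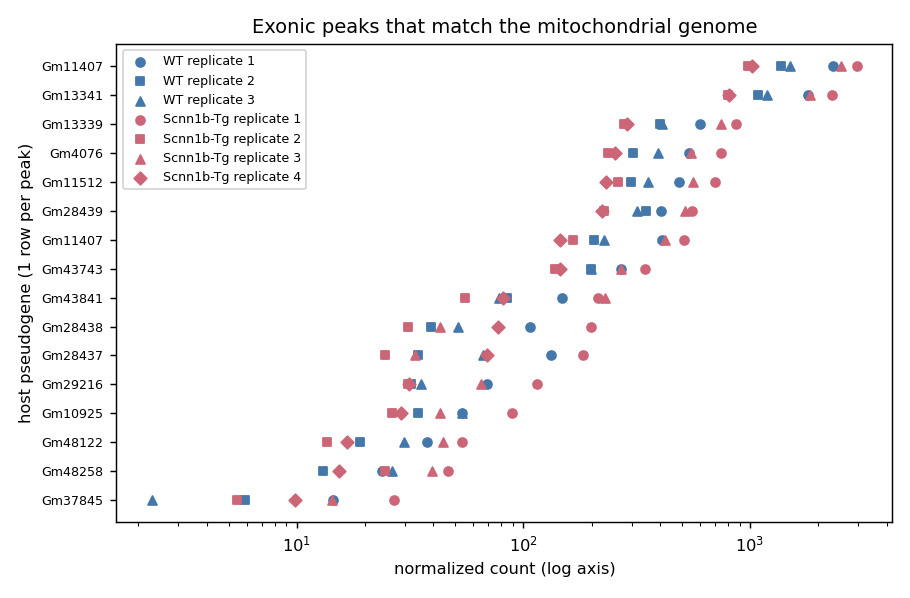
Normalized counts (log axis) of the 16 Exon peaks that match the mitochondrial genome, 1 row per peak named by its pseudogene, in the 7 libraries (blue WT, red *Scnn1b*-Tg; markers show the replicate). The libraries kept a similar order from row to row, with *Scnn1b*-Tg replicate 1 highest in 15 of 16 rows, and the genotypes overlapped.

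The share of all reads in peaks that fell in exonic and UTR peaks was the same in both genotypes within its spread. It was 6.70%, 6.46% and 5.99% in the WT libraries, against 6.69%, 6.45%, 6.40% and 6.04% in the *Scnn1b*-Tg libraries, with means of 6.38% ± 0.36 (SD, n = 3) and 6.39% ± 0.27 (n = 4). The difference of 0.010 percentage points had an exact two-sided permutation p of 0.943 over the 35 ways to label the libraries (adjusted over 4 tests, p = 1.00). Exon peaks took 4.50% ± 0.28 and 4.51% ± 0.21 of the reads, 5' UTR peaks 0.363% ± 0.002 and 0.363% ± 0.005, and 3' UTR peaks 1.52% ± 0.08 and 1.53% ± 0.06. The lowest shares belonged to WT replicate 3 and *Scnn1b*-Tg replicate 4, and without both of these libraries the difference was -0.068 percentage points.

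**Figure D3:**
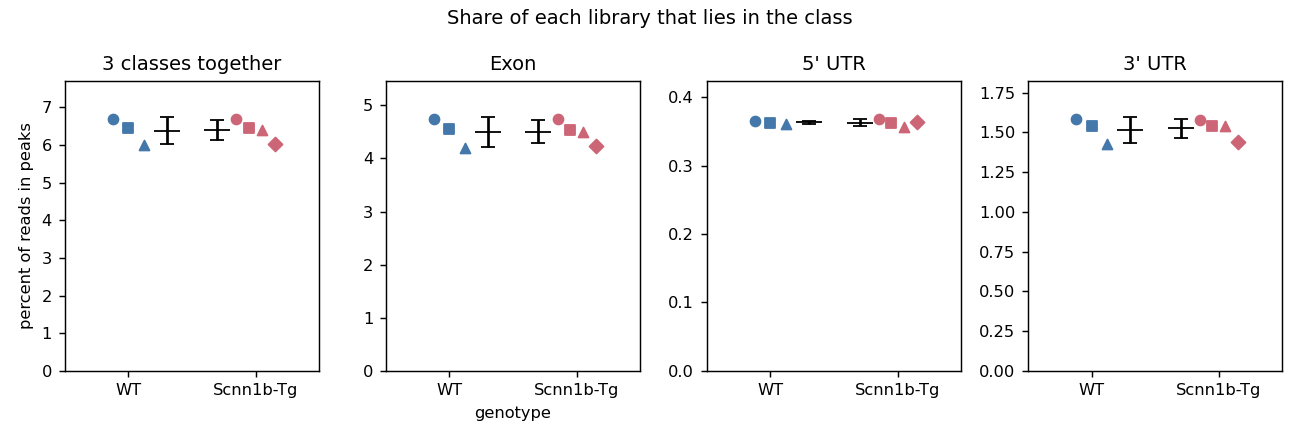
Percent of the reads in peaks (y axis, from 0) that lay in the 3 classes together and in each class, by genotype; markers are libraries (circle, square, triangle and diamond for replicates 1 to 4) and the black bars are mean ± SD. WT replicate 3 and *Scnn1b*-Tg replicate 4 were lowest at 5.99% and 6.04% in the 3 classes together, and the genotype means coincide within the bars.

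Across single peaks, none of the 6771 passed the limma test of genotype at an adjusted p of 0.05, and 1 of all 90376 peaks did (0.00111%). The edgeR quasi-likelihood test on the recovered reads also called 0 of the 6771 (166 at an unadjusted p under 0.05, which is 2.45% against 1.94% of all peaks), and DESeq2 called 5. At an unadjusted limma p under 0.05, 120 members were higher in *Scnn1b*-Tg AMs (1.77%) and 51 lower (0.753%), against 1.49% and 0.517% of all peaks. By class the higher and lower counts were 86 and 34 for Exon, 5 and 1 for 5' UTR and 29 and 16 for 3' UTR peaks. In 149 members every *Scnn1b*-Tg value lay above every WT value, and in 104 every one lay below, which is 2.20% and 1.54% against 1.92% and 1.31% of all peaks. These shares were near those of all peaks.

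The fold changes were centred on 0. The median log2 fold change (on the log2 scale of normalized count + 1) was -0.01 for the 3 classes together and -0.01 for all peaks, and 90% of the members lay between -0.36 and 0.47. In 38 members the fitted means lay more than 2-fold apart, which is 0.561% against 0.637% of all peaks; the higher value belonged to *Scnn1b*-Tg AMs in 32 of them (84.2%, against 81.8% in all peaks). Within the Exon class, 43.2% of the first-exon peaks and 50.9% of the internal-exon peaks had a positive fold change, beside 42.2% of the promoter peaks and 52.4% of the intron peaks. Members with a transcription start inside had a median of -0.02, as promoter peaks had, and those with no start within 3 kb had -0.002.

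**Figure D4:**
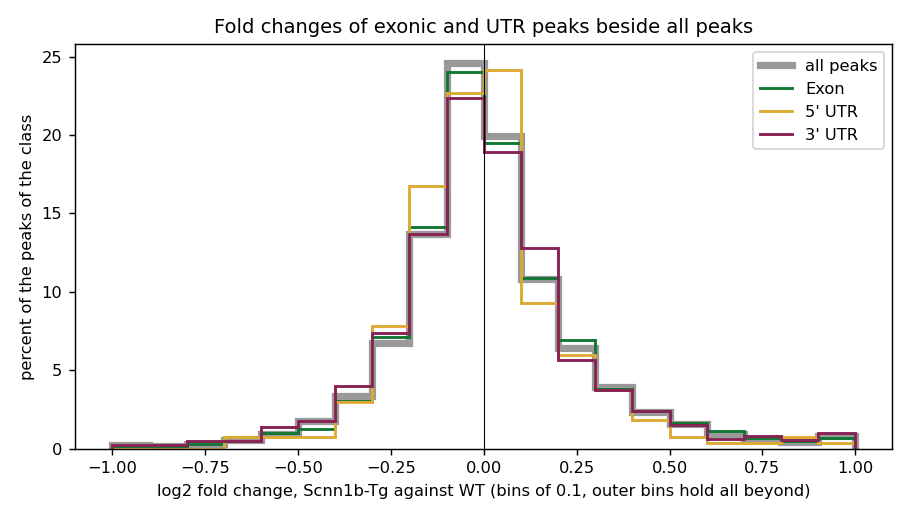
Distribution of log2 fold changes (*Scnn1b*-Tg against WT, x axis, bins of 0.1, outer bins open) as percent of the peaks of each class (y axis), for all peaks (thick grey line), Exon, 5' UTR and 3' UTR peaks. The outlines of the 3 classes follow that of all peaks, with a median of -0.01 in each class.

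The peaks of smallest p in each class are given next with their values. They were picked for their p among the 6385 members with a mean of at least 20 normalized counts, so their separation of the genotypes is a description; all 20 were free of overlap between the genotypes and 18 were higher in *Scnn1b*-Tg AMs.

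The Exon peak of smallest p lay at *Atp6v0a2*, which encodes a membrane subunit of the proton pump that acidifies endosomes and lysosomes (chr5:124636492-124637803, exon 4 of a 4-exon transcript, 7.32 kb from the nearest start). It measured 170.1, 169.6 and 166 in WT, against 265, 403, 413 and 323 in *Scnn1b*-Tg libraries. The WT values were nearly identical and every *Scnn1b*-Tg value was higher. The log2 fold change was 1.03 ± 0.19 (SE) with a limma p of 0.000173, adjusted 0.781; DESeq2 gave an adjusted p of 0.00215 and limma with 1 surrogate variable 0.00633.

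A peak at exon 39 of 106 of *Ubr4*, a very large ubiquitin ligase of the N-degron pathway, had 134, 111 and 81.1 against 220.3, 199, 272 and 222 normalized counts (chr4:139422424-139423229). Its log2 fold change was 1.08 ± 0.21, adjusted limma p 0.969. A peak at exon 37 of 38 of *Lrp4*, a receptor known for its role at the neuromuscular junction, was assigned to *Ckap5* by distance (chr2:91507649-91508961). It had 122, 87.8 and 103 against 189.9, 247, 240.4 and 177. The AP-1 string printed above lies in this peak.

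The *Synpo* peak covered 664 bp of the last exon of the gene of synaptopodin, an actin-associated protein, and was exon sequence over its whole width. It measured 80.8, 83.0 and 98.2 against 129, 179.5, 183 and 238. The *Myom3* peak, at exon 3 of a gene for a sarcomere M-band protein, measured 69.7, 104 and 105 against 130.3, 273, 286 and 243. Among these peaks *Myom3* had the largest log2 fold change, 1.28 ± 0.28, and its lowest *Scnn1b*-Tg library was replicate 1.

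These 5 peaks, at *Atp6v0a2*, *Ubr4*, *Lrp4*, *Synpo* and *Myom3*, were the ones that DESeq2 called at an adjusted p of 0.05, with adjusted p between 0.00215 and 0.0442 (0.052% of all peaks were called). Limma with 1 surrogate variable called 8 members (0.0797% of all peaks). The 8 were these 5 and peaks at *Tent4a*, *Atp11a* and *Gm12349*, with adjusted p between 0.00633 and 0.0494. In limma without the surrogate variable the adjusted p of all 8 peaks was above 0.05, also when each library in turn was left out. DESeq2 and the surrogate variable fit were not repeated in that way.

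Of the Exon peaks of smallest p, 2 were lower in *Scnn1b*-Tg AMs. The peak at exon 5 of 7 of *Bcar3*, an adaptor protein that binds p130Cas, had 139, 87.8 and 146 in WT, against 39.0, 68.0, 61.7 and 51.6 in *Scnn1b*-Tg libraries (log2 fold change -1.15 ± 0.27, limma adjusted p of 1.00). The peak over the first exon and start of the lincRNA *Gm12349*, assigned to *Krt42*, had 295, 346 and 257 against 151, 204, 131 and 174 (log2 fold change -0.86 ± 0.20). The *Scnn1b*-Tg values of both peaks lay below every WT value.

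Among the peaks of smallest p, *Tnip1* came up in both the Exon and the 5' UTR class. It encodes ABIN1, a ubiquitin-binding protein that restrains NF-kB signalling together with A20. Its peak at exon 5 of 18 (chr11:54936008-54936780) measured 145, 109 and 159 against 229, 218, 207 and 303. The second Exon peak, at chr11:54934128-54934856, measured 157, 147 and 158 against 196, 190.4, 236 and 225. The 5' UTR peak (chr11:54940111-54941523) measured 319.8, 323 and 402 against 486, 573, 511 and 503. No *Scnn1b*-Tg library overlapped a WT library in any of the 3 peaks, and the log2 fold changes were 0.79 ± 0.21, 0.45 ± 0.17 and 0.58 ± 0.16, each with a limma adjusted p of 1.00. Across the body of the gene, 7 of the 8 peaks other than the exon 5 peak had a positive fold change, with a median log2 of 0.39. These 8 include the second Exon peak and the 5' UTR peak, and 47.8% of all peaks had a positive fold change. The promoter peak of *Tnip1* was at 0.955 times its WT mean.

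In the 5' UTR class the smallest p belonged to *Tent4a*, a non-canonical poly(A) polymerase. Its peak measured 231, 255 and 300.3 in WT, against 422, 446, 451 and 393 in *Scnn1b*-Tg libraries (log2 fold change 0.71 ± 0.16, limma adjusted p of 1.00). The *Snrnp35* peak, in a gene of the minor spliceosome, measured 27.2, 22.5 and 29.7 against 40.2, 42.6, 64.8 and 74.9. The *Gm14418* peak, assigned to *Zfp970*, measured 46.8, 35.6 and 36.5 against 67.0, 70.7, 61.7 and 53.4. Zinc finger genes of that region of chromosome 2 resemble each other, so reads may have been shared among copies, which was not tested.

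All 8 leading 3' UTR peaks were higher in *Scnn1b*-Tg AMs. The *Clec16a* peak, in a gene for an endolysosomal protein that takes part in autophagy, measured 57.8, 51.0 and 73.1 against 123, 98.8, 159.7 and 104. The *Uhrf1bp1l* peak, in a gene of the bridge-like lipid transfer proteins, measured 32.3, 35.6 and 32.0 against 67.0, 65.3, 71.2 and 55.9. Exons took up 7.99% of it, and it holds the AP-1 string printed above.

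The peak of *Myo5c*, a class V myosin, measured 62.1, 59.3 and 87.9 against 118, 127, 182 and 117. It was the peak of smallest p whose host promoter also differed most, at 1.61 times WT. The peak of *Atp11a*, a flippase that moves phosphatidylserine to the inner leaflet of the membrane, measured 443, 357 and 439.6 against 601, 620.1, 566 and 772. In the *Atp11a* body, 14 of the 17 other peaks had a positive fold change, where 47.8% of all peaks had one. Of the 17, 4 were higher at an unadjusted limma p under 0.05, against 1.49% of all peaks. Some other host genes had no such tilt, with 20 of 48 other peaks positive at *Bcar3*, 6 of 12 at *Clec16a* and 2 of 6 at *Ubr4*.

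The *Gab2* peak lay in the 3' UTR of a scaffolding adaptor of receptor signalling and was assigned to *Usp35*. Its values were low, 14.5, 9.49 and 14.8 against 31.6, 35.4, 23.7 and 35.6. In the gene, 30 of the 37 other peaks had a positive fold change (47.8% of all peaks), with a median log2 of 0.14. The *Myrf* peak, assigned to *Tmem258*, measured 111, 168 and 147 against 183, 334, 264 and 246, and *Myrf* encodes a membrane-bound transcription factor of myelination. The peak of *Fads2*, the delta-6 fatty acid desaturase, was assigned to *Fads3* and measured 27.2, 24.9 and 35.4 against 42.6, 62.6, 61.7 and 60.2. The *Gm4841* peak measured 23.8, 42.7 and 25.1 against 43.8, 65.3, 88.6 and 66.9.

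**Figure D5:**
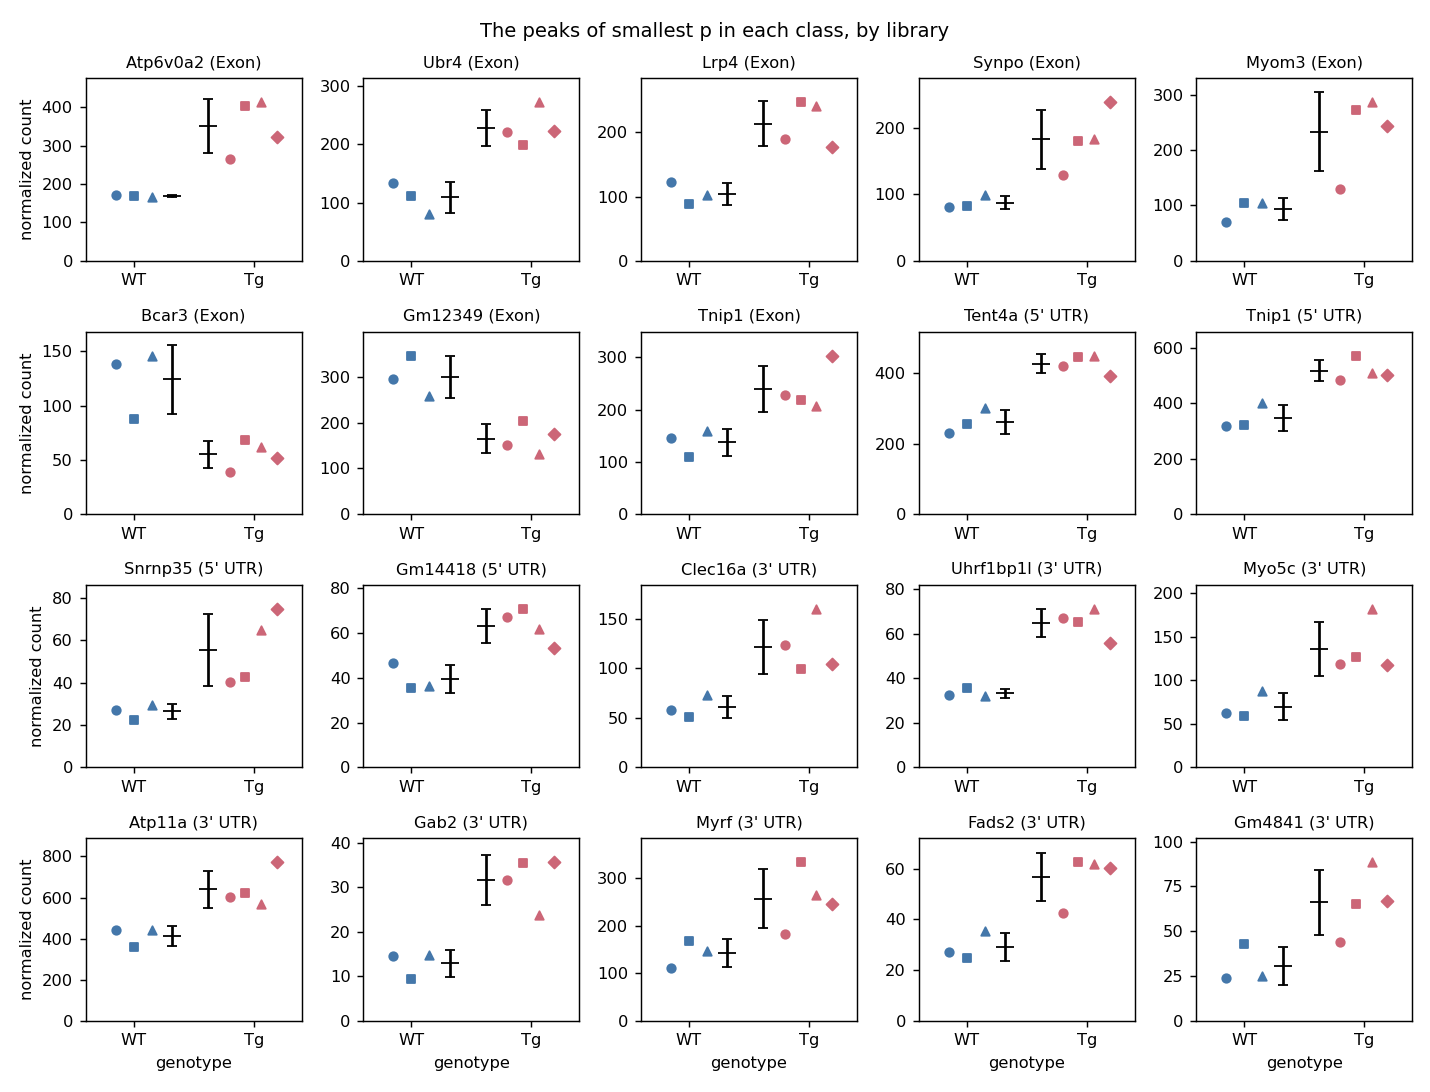
Normalized counts (y axes, from 0, 1 scale per panel) of the 8 Exon, 4 5' UTR and 8 3' UTR peaks of smallest limma p, by library (blue WT, red *Scnn1b*-Tg; circle, square, triangle and diamond are replicates 1 to 4) with mean ± SD in black. In all 20 panels the genotypes do not overlap, and *Bcar3* and *Gm12349* are the panels in which *Scnn1b*-Tg lay lower.

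The promoters of the same genes differed little between genotypes. A promoter peak of the host gene existed for 17 of the 20 peaks of smallest p, and in 16 of them its *Scnn1b*-Tg mean was between 0.9 and 1.1 times the WT mean. Over all promoter peaks the quartiles of the log2 fold change were -0.096 and 0.062, so such small differences were usual for promoters. These promoter peaks were not picked by p, unlike the peaks they stand beside. Of the 17 peaks with other peaks in the host gene, 13 had the largest absolute fold change of the gene. The peaks were picked for their small p from the same values, so this count follows from the choice and is a description. Over all 3931 pairs of an exonic or UTR peak and the promoter peak of its gene (2876 genes), the log2 fold changes had a Pearson correlation of 0.10 and a Spearman correlation of 0.08, and 52.6% of the pairs had the same sign. Both values of a pair came from the same libraries and share their scaling, and genes are not replicates, so this is a description.

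Members of gene lists for this tissue were then read out. The Toll-like receptor and NF-kB list had 24 member peaks in 16 of its 56 genes, with a median log2 fold change of 0.02 (all peaks, -0.01); 0 passed the limma test, 3 were higher and 2 lower at an unadjusted p under 0.05. The 3 higher peaks were those of *Tnip1*. The lower ones were the 3' UTR peak of *Irf4*, a transcription factor of lymphocytes and alternatively activated macrophages, with 250.0, 213 and 193 against 174, 151, 111 and 134, and the 5' UTR peak of *Relb*, of the alternative NF-kB pathway, with 210.1, 216 and 239.8 against 149.7, 179.5, 159.7 and 192. Neither peak's values overlapped between genotypes.

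The list of histone-modifying and chromatin-remodelling enzymes had 50 member peaks in 32 genes, with a median log2 fold change of -0.09 (all peaks, -0.01). Of the 50, 18 were higher in *Scnn1b*-Tg AMs, where 47.8% of all peaks were. At an unadjusted limma p under 0.05, 1 was higher and 2 lower, against 1.49% and 0.517% of all peaks. The peak at exon 20 of the histone demethylase gene *Kdm4a*, assigned to *St3gal3*, had 288, 203 and 186 against 357, 406, 300.5 and 325. The 3' UTR peak of *Jarid2*, a partner of the Polycomb complex PRC2, had 229.6, 198 and 217 against 189, 146, 125 and 154. That of the DNA methyltransferase gene *Dnmt3a* had 27.2, 35.6 and 17.1 against 3.65, 12.7, 6.33 and 7.98, the largest absolute fold change among the list peaks at this p (log2 -1.72 ± 0.49, limma adjusted p of 1.00). The last peak was near the floor of the table in the *Scnn1b*-Tg libraries, and it was singled out after its values were seen, as were the *Irf4*, *Relb* and *Jarid2* peaks.

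The 23 member peaks of AM identity genes lay in 11 genes and had a median log2 fold change of 0.11 (all peaks, -0.01). Of the 23, 16 were positive, where 47.8% of all peaks were, and none reached an unadjusted limma p of 0.05. Their smallest p was at exon 6 of *Csf2rb*, the shared beta chain of the GM-CSF receptor, with 29.8, 18.97 and 36.5 against 39.0, 41.7, 30.0 and 52.2, which overlapped. A peak outside this list, at exon 16 of *Csf1r*, the M-CSF receptor, had the smallest p of the cytokine and chemokine list. It measured 39.1, 42.7 and 46.8 against 48.7, 57.1, 64.8 and 63.9 without overlap (limma adjusted p of 1.00). The *Csf1r* promoter stood at 0.996 times WT.

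In the lipid and cholesterol list, with 29 member peaks and a median log2 fold change of -0.04, *Fads2* was the peak higher at an unadjusted limma p under 0.05. The other lists held no member peak at that p. They were phagocytosis and scavenger receptors (35 peaks, smallest p at *Itgam*, the CD11b integrin, 25.5 ± 8.70 against 34.3 ± 6.07), lysosome and matrix remodelling (23, *Atp6v0a1* of the proton pump, 440.0 ± 54.7 against 363 ± 57.4) and actin, adhesion and cytoskeleton (33, *Msn*, the gene of moesin, 20.0 ± 10.2 against 32.9 ± 9.81). The AP-1 and mRNA-decay list had 15 peaks (*Zc3h12c*, a relative of Regnase-1, 15.1 ± 4.98 against 24.8 ± 12.5) and the MHC list 2 (*B2m*, the light chain of MHC class I, 610.0 ± 166 against 544 ± 105). The cytokine and chemokine list had 19 peaks with a median log2 fold change of 0.05.

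Lists of other cells had few members. Lymphoid genes had 0, granulocyte and monocyte genes 1 (the 3' UTR peak of *Ccr2*, 413 ± 34.9 against 401 ± 51.5) and epithelial genes 4. The epithelial peak of smallest p was annotated to the 3' UTR of *Scnn1a*, the alpha subunit of the sodium channel, with 725 ± 62.4 against 639 ± 80.5 normalized counts. It was assigned to the neighbouring *Tnfrsf1a*, a TNF receptor gene, and the *Scnn1a* promoter peak measured 129.6 ± 13.8 and 129.3 ± 27.6.

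Most host genes held a single exonic or UTR peak (4106 of 5189), and 6 genes had 7 or more. *Dock10*, an activator of small GTPases, had 8. *Lrp1* (a scavenger and signalling receptor), *Mrc1* (the mannose receptor CD206), *Neat1* (the long non-coding RNA of paraspeckles), *Sptbn5* (a spectrin) and *Syne1* (nesprin-1, of the nuclear envelope) had 7 each. All 7 *Lrp1* peaks had a negative fold change, between -0.23 and -0.06, and their summed counts were 4068, 3968 and 3676 in WT against 4004, 3893, 3228 and 3649 in *Scnn1b*-Tg libraries. The sums overlapped. Of the *Mrc1* peaks 5 had a positive fold change, with sums of 1498 ± 280.0 and 1557 ± 245. Over all peaks 47.8% had a positive fold change. The 7 *Neat1* peaks summed to 3215, 2815 and 3301 in WT, against 1959.9, 3459.5, 4601 and 2891 in *Scnn1b*-Tg libraries, so replicates 1 and 3 of the same genotype differed more than the genotype means did (3111 ± 259 and 3228 ± 1105). None of the peaks of these 6 genes separated the genotypes.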

How the data were processed

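The AM libraries were 3 of WT and 4 of *Scnn1b*-Tg mice. Per the labels, the authors used the mm10 build with DiffBind, edgeR, DESeq2 and ChIPseeker. The deposited values per consensus peak are normalized counts (a signal of read counts divided by a factor per library). Whole reads were recovered from the smallest step of each library (100% of values within 1e-06 reads); the edgeR count test on these reads called 0 members. The deposited mean concentrations, fold changes, p-values and FDR of the authors' own comparison were not used.

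The genotypes were compared with limma 3.58.1 (trended, robust variances, R 4.3.3) on log2(normalized count + 1) over all 90376 peaks, with no filter and Benjamini-Hochberg adjustment over all peaks. edgeR 4.0.16, DESeq2 1.42.0, sva 3.50.0 with 1 surrogate variable, other scalings, pseudocounts of 0.5 and 5, a minimum mean of 20, and leaving out each library served as alternatives. Shares of reads were tested by exact permutation of the 7 libraries and class levels by exact sign flips. Host exons, UTRs and starts came from GENCODE M21 and sequence from GRCm38 (RefSeq). Members and gene lists were chosen with earlier results of these data known. Peaks named in the text are, per class among means of at least 20, the 8 (5' UTR: 4) of smallest limma p with 1 per assigned gene and the 3 highest per kb, the peak of smallest p in each of 13 gene lists, and the genes with most peaks, where a tie at 7 peaks gave 6 genes in place of 5; others are said to be singled out after their values were seen. Replicate numbers are those of the deposited columns. Some list members are not reported here.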

Additional observations from a re-analysis of the deposited data

Results flagged for a closer look

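In 43 values examined for 1 library far from the rest of the *Scnn1b*-Tg group, 3 were found, where chance flags about 1 in 20. The *Fads2* 3' UTR peak (assigned to *Fads3*) had 42.6 normalized counts in *Scnn1b*-Tg replicate 1 against 60.2 to 62.6 in the other 3 libraries. The *Ezr* Exon peak had 5158 in *Scnn1b*-Tg replicate 2 against 6404 to 6650.3. The *Myo5c* 3' UTR peak had 182 in *Scnn1b*-Tg replicate 3 against 117 to 127.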

How the results depend on the processing

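The classes' levels against all other peaks kept their signs when libraries or low peaks were left out: without 1 library they ranged from -0.23 to -0.21 (3 classes together), -0.20 to -0.19 (Exon), 0.15 to 0.19 (5' UTR) and -0.32 to -0.30 (3' UTR). With a minimum mean of 20 the 5' UTR level was 0.06 in place of 0.17. Against intron peaks, added after seeing the data, they reversed to 0.14, 0.17 and 0.0482 for the 3 classes together, Exon and 3' UTR. The genotype difference in the share of reads had no stable sign: without 1 library it ranged from -0.19 to 0.17 percentage points for the 3 classes together, from -0.15 to 0.12 for Exon, from -0.00204 to 0.00173 for 5' UTR and from -0.0373 to 0.0418 for 3' UTR. On autosomes alone the 5' UTR difference was 0.000145. Without both libraries that stood apart it was -0.0680, -0.0572 and -0.00937 for the 3 classes together, Exon and 3' UTR.

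Adjusted calls numbered 0 under limma and edgeR, 5 under DESeq2 (all Exon), and 8 with 1 surrogate variable (6 Exon, 1 5' UTR, 1 3' UTR). Limma without the surrogate variable also called 0 when 1 library was left out. DESeq2 and the surrogate variable fit were not rerun without a library, so whether their calls depend on 1 library was not tested. At an unadjusted p under 0.05 the surrogate variable gave 395 members (278 Exon, 16 5' UTR, 101 3' UTR), or 5.83% against 4.94% of all peaks, and leaving out both libraries that stood apart gave 12 5' UTR peaks. Without 1 library these counts ranged from 109 (without *Scnn1b*-Tg replicate 3) to 251 together, 75 to 178 for Exon, 4 to 11 for 5' UTR and 30 to 68 for 3' UTR, and the 5' UTR median log2 fold change from -0.0539 to -0.0108. The share of all peaks at this p is not given for the fits that leave out libraries. Whether these shifts belong to the members or to all peaks therefore cannot be told. Peaks without overlap, 253 in both directions, numbered 1130 (789, 41 and 300 by class) without both libraries that stood apart, an alternative added after seeing the data, in which 2 libraries stand against 3; that is 16.7% against 15.8% of all peaks. The cause of these shifts was not tested, beyond fewer libraries making overlap rarer.

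In whole peaks in place of the central 200 bp the strings were found in 25.4% (AP-1), 16.7% (PU.1), 6.57% (CTCF), 34.4% (C/EBP), 10.6% (interferon response), 3.97% (NF-kB) and 6.03% (E-box) of members. For the 20 peaks of smallest p, 327 alternative values kept direction and call, 13 passed the threshold in addition and 0 reversed. No paired analysis was possible because the deposited columns carry neither the numbers nor the batches of the labels. Peaks near the floor, such as that of *Dnmt3a*, rest on few reads.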
